A study of Homo sapiens with 40 samples.

Results

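Aldehyde dehydrogenases oxidise reactive aldehydes to carboxylic acids with NAD or NADP as the electron acceptor. The 10 isozymes described here are ALDH1A1, ALDH1A2, ALDH1A3, ALDH1B1, ALDH1L1, ALDH2, ALDH3A1, ALDH3A2, ALDH3B1 and ALDH8A1. They were taken by gene name from 56568 named genes, and they are 10 of the 19 human ALDH genes in the tables. Their transcript levels were followed across 40 RNA-seq libraries in 8 groups of 5 libraries each. The level of a gene is its FPKM, that is its fragments relative to transcript length and to all mapped fragments, summed over all transcripts that carry the gene name.

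All libraries came from differentiated HepaRG cells (HPR 116), a single human liver line that was bought already differentiated and holds biliary-like beside hepatocyte-like cells. All cultures, the solvent controls included, were kept from day 8 to day 14 in medium with 1% DMSO and 2% fetal bovine serum. The exposed groups received PCB 126 at 100 pM, 10 nM or 1 µM, one of 3 glyphosate levels (10 µg/L, 1 mg/L, 0.1 g/L), or the herbicide Roundup (Grand Travaux +) at 10 µg/L. PCB 126 is a planar biphenyl that acts like dioxin, as a ligand of the aryl hydrocarbon receptor (AhR). The labels do not say whether the 5 libraries of a group came from separate cultures, so p-values measure the spread between these libraries, which may be technical.

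In liver, these enzymes share out several kinds of aldehyde. ALDH2 and ALDH1B1 are mitochondrial and oxidise acetaldehyde from ethanol, whereas the cytosolic ALDH1A enzymes oxidise retinal to retinoic acid. ALDH3A1 acts on aromatic and medium-chain aldehydes, ALDH3A2 on long-chain fatty aldehydes, and ALDH3B1 on aldehydes from lipid peroxidation. ALDH1L1 belongs to folate metabolism, in which it oxidises 10-formyltetrahydrofolate, and ALDH8A1 is an aldehyde dehydrogenase of tryptophan breakdown. ALDH3A1 has long been known as a gene that dioxin-like ligands of AhR induce. AhR binds DNA with its partner ARNT at elements whose core is GCGTG.

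Because 2 of the isozymes moved together with PCB 126, the GCGTG core was looked up in their promoters. RefSeq windows on GRCh38.p14, from 250 bases before to 50 bases after an annotated start, matched 8 of the 10 genes by symbol (not ALDH2 or ALDH3A1), with 12 windows in all. The core, read on either strand as GCGTG or CACGC, was present in 3 of the 12 windows, each of which held 2 copies. At least 1 copy was found in 36.5% of the 35116 windows in the table, and at least 2 in 12.7%. The copies of ALDH1A3, ALDH1A2 and ALDH3A2 are shown 5′ to 3′ on the strand of the gene, with the core in capitals, since ALDH1A3 rose with PCB 126, ALDH3A2 did not pass the test and ALDH1A2 was too low to enter it.
ALDH1A3 chr15:100879622-100879650 (plus strand, 197 bases upstream): gacggtccgcggCACGCgggtggagccgc
ALDH1A3 chr15:100879776-100879804 (plus strand, 43 bases upstream): ctcgggcgggagGCGTGgggcgctgcata
ALDH1A2 chr15:58065916-58065944 (minus strand, 221 bases upstream): actgtggaggcgGCGTGggctggtctccg
ALDH1A2 chr15:58065668-58065696 (minus strand, 28 bases downstream): cccgcactgcccCACGCcgcgggctaggg
ALDH3A2 chr17:19648663-19648691 (plus strand, 76 bases upstream): agggcgggggccGCGTGggcgaggccgtg
ALDH3A2 chr17:19648781-19648800 (plus strand, 43 bases downstream): gggactcagcggGCGTGgag
The last of these is shorter because the window ends there. A match of these 5 letters is a description of the sequence and does not show binding.

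In the solvent controls, ALDH1A1 was the most abundant of the 10 transcripts, at 328 ± 77.5 FPKM (SD, n = 5). ALDH3A2 followed at 143 ± 34.7 FPKM and ALDH3A1 at 121 ± 37.5 FPKM. The ranges of these last 2 genes overlapped, although ALDH3A2 exceeded ALDH3A1 in 5 of 5 control libraries. ALDH1B1 (29.1 ± 5.31 FPKM), ALDH2 (20.5 ± 12.7 FPKM), ALDH1L1 (18.5 ± 3.90 FPKM) and ALDH3B1 (15.7 ± 4.30 FPKM) formed a middle group in which each overlapped its neighbour. ALDH8A1 lay well below them at 2.16 ± 0.705 FPKM. ALDH1A2 (0.666 ± 0.225 FPKM) and ALDH1A3 (0.635 ± 0.352 FPKM) were the least abundant and did not differ beyond their spread. Thus the 3 retinal-oxidising ALDH1A enzymes held both the highest and the lowest levels of the set.

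The libraries were not equal in their overall level. Summed over all transcripts, with or without a gene name, the FPKM ran from 255292 to 513059 per library. More than 30% of the read pairs had aligned to several places in 9 libraries, and this share was not known for 2 others. The 9 were replicate 5 of the control, replicates 3 and 5 at 10 nM, replicates 1 and 5 at 1 µM, replicate 5 of glyphosate at 10 µg/L, replicate 2 of glyphosate at 0.1 g/L, and replicates 4 and 5 of Roundup. In these 9 the FPKM summed to between 255292 and 332974, against 311488 to 513059 in the other libraries. The 8 hepatocyte markers (ALB, APOA1, TTR, SERPINA1, HNF4A, TF, CYP3A4 and CYP2E1) averaged at least 1 FPKM in every group, and KRT19, SOX9 and SPP1 did of 5 biliary markers, while KRT7 stayed under 1 FPKM in the controls and EPCAM was listed at 0 in 4 of 5 control libraries. COL1A2 was listed at 0 in 4 of 5 control libraries too. The median of summed hepatocyte markers was 18585 FPKM in the controls (13278 to 19409) and 9011 FPKM at 1 µM (5437 to 13310). The summed biliary markers went from a median of 372 FPKM (224 to 452) to 213 FPKM (122 to 215), and 5 mesenchymal markers from 77.3 FPKM (37.9 to 82.3) to 163 FPKM (48.2 to 187). Of these 5, 3 averaged at least 1 FPKM at 1 µM, and the 1 marker that passed the test there, COL3A1, was lower (log2 change -3.07). Of the 8 hepatocyte markers 1 passed at 1 µM, and it was lower. Of the 3 biliary markers tested, 0 passed at this dose. In the dose trend given below, which called 3.78% of all genes, 4 hepatocyte markers and 1 biliary marker passed, all lower. Of the 4 mesenchymal markers tested, 1 was called higher and 1 lower in that trend. Against the herbicide groups, where 9.37% of genes passed, 3 hepatocyte and 2 biliary markers were called, all lower. There 2 mesenchymal markers were called higher and 1 lower. The part of these shifts in the isozyme levels was not tested, and fewer cells of a type cannot be told apart from less RNA per cell. Log2 changes below are differences of mean log2(FPKM + 1), a scale that understates the change of genes near or under 1 FPKM. On it, the median of all 9755 genes tested fell by 0.26 at 1 µM and by 0.21 at 10 nM, and was 0.07 at 100 pM.

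ALDH3A1 and ALDH1A3 rose with PCB 126, and among the 10 isozymes these were the only genes that passed the test at any single dose. ALDH3A1 reached 3.70 times its control mean at 1 µM, and ALDH1A3 reached 10.2 times. At the same dose, the other 6 isozymes that could be tested spanned log2 changes from -0.86 to 1.05 with adjusted p-values of 0.138 or more in limma. ALDH1A2 and ALDH8A1 had a variance of FPKM under 1 and did not enter the fit.

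**Figure D1:**
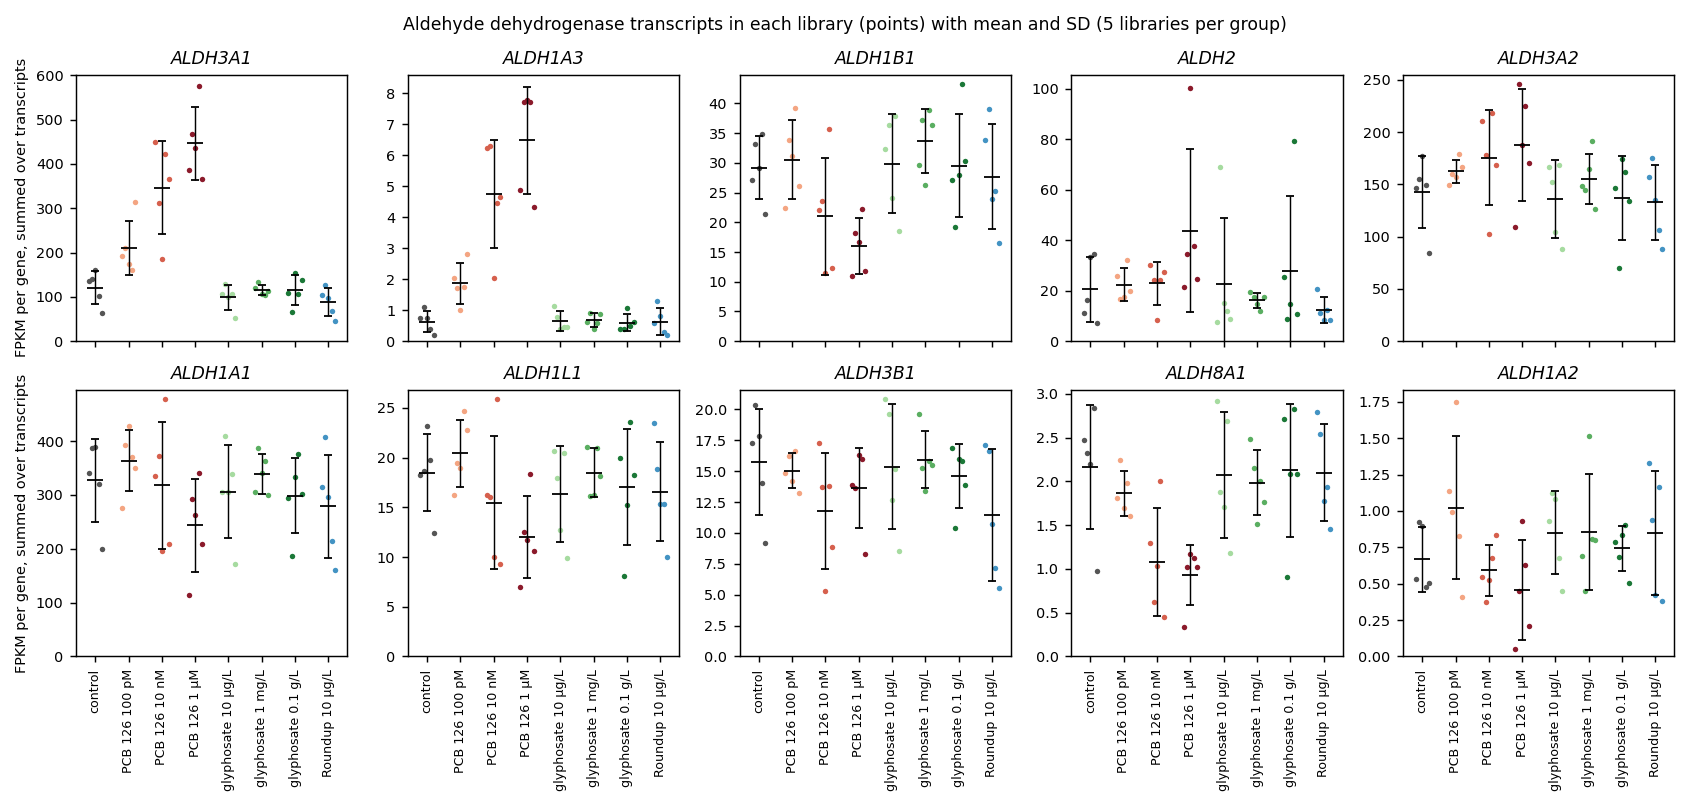
FPKM of each of the 10 isozymes (vertical axes, each from 0 on its own scale) in the 5 libraries of the 8 groups (horizontal axes); points are libraries, horizontal marks the mean and bars the SD, cut at 0. ALDH3A1 and ALDH1A3 rise with PCB 126 and overlap the controls in the 4 herbicide groups, while ALDH2 holds single libraries up to 100.4 FPKM.

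ALDH3A1, the isozyme of aromatic aldehydes, lies at chr17:19737984-19748943 on the minus strand of GRCh38. Its FPKM in the 5 control libraries was 136, 140, 160, 103 and 64.6. At 100 pM it was 192, 211, 174, 161 and 315. At 10 nM the libraries gave 449, 312, 185, 423 and 365 FPKM, and at 1 µM 387, 469, 436, 575 and 365 FPKM. Every exposed library lay above every control library at all 3 doses, although at 100 pM the margin between the groups was under 1 FPKM, and at 10 nM replicate 3 stood well under the other 4. The same pattern, all 5 libraries above all controls, held for 0.113%, 0.267% and 0.707% of the 9755 genes, in order of dose. The opposite pattern, all below, held for 0.0513%, 0.246% and 1.64% of genes, and for none of the 10 isozymes.

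The mean of ALDH3A1 was 1.75, 2.88 and 3.70 times that of the controls at the 3 doses in rising order. Its log2 change was 0.82 ± 0.28 (SE) at 100 pM, 1.52 ± 0.28 at 10 nM and 1.93 ± 0.28 at 1 µM. With limma and Benjamini-Hochberg adjustment over all genes the adjusted p was 1, 0.0091 and 1.73e-04 in order of dose. The exact permutation test on ALDH3A1 alone (2-sided) gave p = 0.00794 at each of the 3 doses, which is the smallest value that 5 against 5 libraries can give. These were 3 of 30 such tests on the isozymes. The call at 10 nM was lost in limma without replicate 1 of that group (log2 change 1.41, adjusted p = 0.0518), with no filter on low values (1.52, adjusted p = 0.0633) and with the most abundant transcript alone (0.93, adjusted p = 0.774). The tables also hold 1 assembled transcript without a gene name inside the span of ALDH3A1, with up to 151.7 FPKM in a library. With it added, the median at 10 nM went from 365 to 423 FPKM, and the log2 change was 1.63 at 10 nM and 1.93 at 1 µM, both called.

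ALDH1A3, which makes retinoic acid, lies at chr15:100877714-100916626 on the plus strand. It was nearly silent in the controls, with 0.734, 1.11, 0.738, 0.406 and 0.189 FPKM. At 100 pM it gave 2.03, 1.72, 0.998, 1.74 and 2.83 FPKM, at 10 nM 6.24, 6.30, 2.03, 4.47 and 4.65 FPKM, and at 1 µM 4.88, 7.71, 7.78, 7.71 and 4.34 FPKM. Its 10 nM and 1 µM libraries all exceeded the controls, and at 100 pM replicate 3 fell within the control range. The means were 2.93, 7.46 and 10.2 times the control mean. Its log2 change was 0.80 ± 0.27 (SE) at 100 pM (adjusted p = 1 in limma), 1.77 ± 0.27 at 10 nM (adjusted p = 0.00127) and 2.19 ± 0.27 at 1 µM (adjusted p = 2.29e-05). The exact permutation p was 0.0159 at 100 pM and 0.00794 at both higher doses. Even at 1 µM, the mean of 6.48 FPKM was a small fraction of the 446 FPKM of ALDH3A1.

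Across the whole table, the background of these calls was low at the lower doses. At 10 nM, 0.205% of the 9755 genes passed the threshold of 0.05, 0.144% higher and 0.0615% lower. At 1 µM it was 1.87%, with 0.646% higher and 1.22% lower, and 2 of the 8 tested isozymes passed, both higher. The split over all genes, 63 higher and 119 lower, depended on scaling, since it was 532 and 553 after quantile normalization and 448 and 375 with a library-size term. Across the 4 PCB 126 groups in an F-test 1.39% of genes passed, and again ALDH3A1 (adjusted p = 8.68e-04) and ALDH1A3 (adjusted p = 4.71e-05) were the 2 isozymes called by limma. The median log2 change of the 8 tested isozymes at 1 µM was 0.10, with 4 above and 4 below 0. At 100 pM, 0% of genes passed in limma. An unadjusted p under 0.05 was reached there by 116 of the 9755 genes, ALDH3A1 and ALDH1A3 among them. These 116 are fewer than the about 1 in 20 genes that reach such a p where nothing changes, for a reason not tested. An ordinary linear model also called 0 at this dose.

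**Figure D2:**
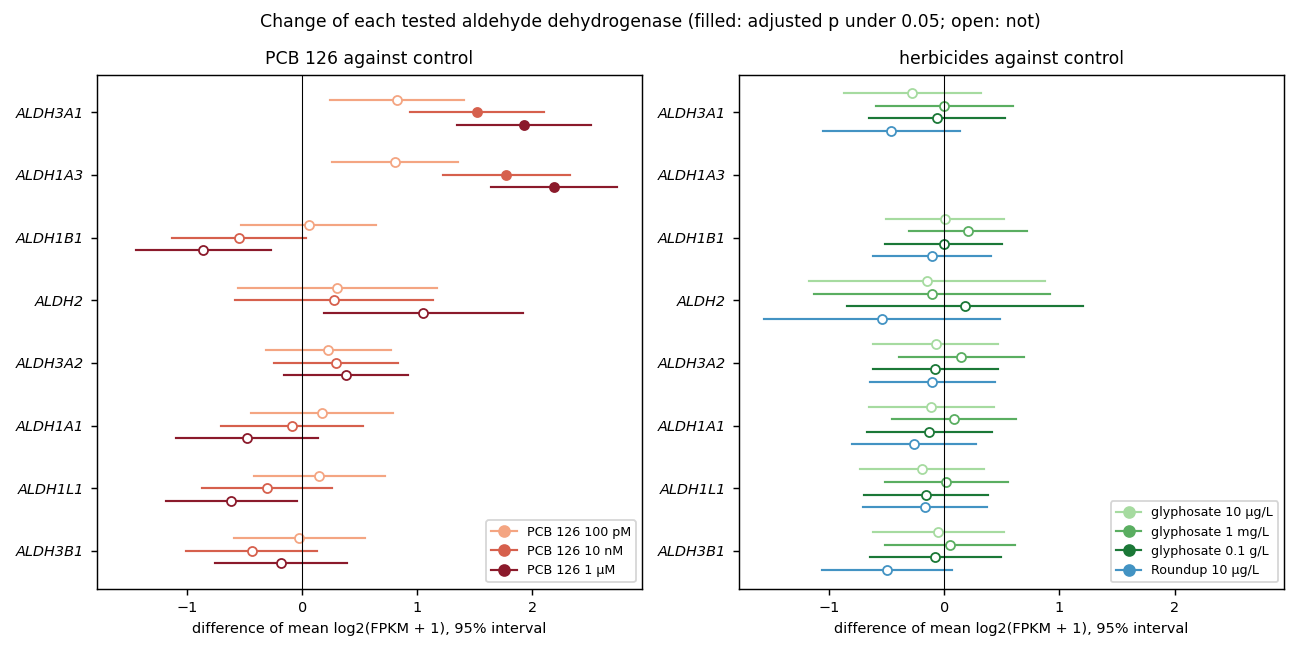
Difference of mean log2(FPKM + 1) from the controls with its 95% interval (horizontal axis) for the isozymes that entered the fit, at 3 doses of PCB 126 (left) and in 4 herbicide groups (right). Filled points passed an adjusted p of 0.05 in limma, which only ALDH3A1 and ALDH1A3 did, at 10 nM and 1 µM. ALDH1A3 did not enter the fit of the herbicide table.

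The doses themselves were then compared. A trend over the 4 dose levels, controls included, called 3.78% of all genes and 3 isozymes. Per step, ALDH1A3 changed by 0.75 ± 0.08 (SE, adjusted p = 2.28e-06 in limma), ALDH3A1 by 0.65 ± 0.09 (adjusted p = 3.14e-05) and ALDH1B1 by -0.32 ± 0.09 (adjusted p = 0.0411). Neighbouring doses were harder to separate, and 0% of genes passed for 10 nM against 100 pM or for 1 µM against 10 nM in limma. An unadjusted p under 0.05 was reached by 558 and 324 of the 9755 genes, and an ordinary linear model called 0 in both. About 1 in 20 genes reach such a p where nothing changes, so these counts by themselves show no dose step. From 100 pM to 10 nM the log2 difference was 0.97 for ALDH1A3 (95% interval 0.42 to 1.52) and 0.69 for ALDH3A1 (0.11 to 1.27). From 10 nM to 1 µM it was 0.42 for ALDH1A3 (-0.13 to 0.96) and 0.41 for ALDH3A1 (-0.17 to 0.99). The intervals of the first step exclude 0, but they are not adjusted, and neither step passed the test in either gene. The intervals of the second step include 0, which does not show that it was absent.

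ALDH1B1, a mitochondrial isozyme at chr9:38392664-38398661, went the other way. The controls had 27.2, 33.2, 29.2, 34.8 and 21.4 FPKM, and the 1 µM libraries had 10.9, 18.1, 16.6, 22.3 and 11.7 FPKM. Only the highest 1 µM library reached into the control range. The log2 change at 1 µM was -0.86 ± 0.28 (SE) with an adjusted p of 0.138 in limma, and the exact permutation p on this gene alone was 0.0159. The call of the trend was fragile: leaving out single libraries gave adjusted p-values up to 0.116, and the call was lost for 14 of 20 libraries. The median of all genes fell as well, by 0.10 per dose step.

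ALDH2, the main mitochondrial acetaldehyde dehydrogenase at chr12:111766887-111817529, had the widest error of the 8 isozymes in the fit (SE 0.42 on the log2 scale). Its control libraries gave 11.3, 16.2, 33.1, 34.7 and 7.06 FPKM and its 1 µM libraries 21.3, 34.6, 100.4, 37.7 and 24.7 FPKM. The groups overlapped, and the mean at 1 µM was raised by replicate 3. In that library 97.7 of the 100.4 FPKM came from a single transcript, ENST00000548536, which stayed at or under 1.68 FPKM in every control, 100 pM and 10 nM library, while ENST00000261733, the most abundant transcript over all libraries, was at 2.71 FPKM there. The log2 change was 1.05 (95% interval 0.19 to 1.92, adjusted p = 0.245 in limma). The tables also hold 4 assembled transcripts without a gene name inside the span of ALDH2, with 32.9% of the summed FPKM there. With these added, the median was 33.5 FPKM in the controls (17.7 to 43.9) and 36.5 FPKM at 1 µM (21.4 to 113.8), and the log2 change of ALDH2 at 1 µM was 0.62. The level of this gene in the tables therefore depended on which transcripts the assembly named and on the share given to ENST00000548536.

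ALDH3A2, the fatty aldehyde dehydrogenase, lies at chr17:19648136-19677598, 60385 bp from ALDH3A1 on the opposite strand. It had 147, 155, 177, 150 and 84.2 FPKM in the controls and 109, 246, 187, 225 and 170 FPKM at 1 µM, with overlapping groups. Its log2 change at 1 µM was 0.38 (95% interval -0.16 to 0.92), and its mean stood at 1.32 times the control mean. The ratio of ALDH3A1 to its neighbour does not depend on scaling between libraries. It was 0.837 ± 0.106 in the controls (SD, n = 5) and 1.30 ± 0.371, 1.96 ± 0.188 and 2.50 ± 0.639 in order of dose. The exact permutation p on the log2 ratio was 0.0317, 0.00794 and 0.00794 at the 3 doses, among 33 tests of ratios and shares. The 2 neighbouring genes thus differed in their response by more than the spread between libraries.

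The remaining isozymes showed no change that passed the test. ALDH1A1 had 340, 387, 390, 321 and 199 FPKM in the controls and 115, 293, 262, 341 and 209 FPKM at 1 µM, a log2 change of -0.48 (95% interval -1.09 to 0.14). ALDH1L1, the folate enzyme, changed by -0.61 (-1.18 to -0.05, adjusted p = 0.322 in limma), and ALDH3B1 by -0.18 (-0.75 to 0.39). For ALDH3B1 the sign turned to 0.01 under quantile normalization and to 0.07 with a library-size term. ALDH8A1, below the variance filter, gave 2.47, 2.33, 2.20, 2.84 and 0.975 FPKM in the controls and 0.330, 1.02, 1.17, 1.12 and 1.02 FPKM at 1 µM. Its mean at 1 µM was 0.431 times the control mean (exact permutation p = 0.0397), and 4 of 5 exposed libraries lay inside the control range, which control replicate 5 extended downwards. ALDH1A2 stayed under 2 FPKM in all libraries, with a mean of 0.666 FPKM in the controls and 0.455 FPKM at 1 µM (exact permutation p = 0.278).

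Scaling between libraries decided the call of some of these genes, but not that of ALDH3A1 and ALDH1A3. After scaling to the 75th percentile, ALDH1B1 (log2 change -0.70) and ALDH3A2 (0.55) passed at 1 µM as well, and after quantile normalization ALDH1B1 (-0.67), ALDH3A2 (0.64) and ALDH2 (1.26) did. ALDH1B1 (-0.57) and ALDH3A2 (0.63) also passed with a library-size term in an ordinary linear model. More genes passed over the whole table as well: 247 higher and 343 lower, 532 and 553, and 448 and 375, in the order of these settings. In the main fit 63 were higher and 119 lower. ALDH3A1 lay between 1.82 and 2.19 and ALDH1A3 between 2.13 and 3.28 at this dose in all 15 alternative settings, and both passed in each. Without the 5 libraries of the PCB 126 table with over 30% multiply aligned pairs, the log2 changes of ALDH3A1 and ALDH1A3 at 1 µM were 1.87 and 2.34, and ALDH3A2 passed as well (0.47, adjusted p = 0.0446 in limma). That fit called 206 genes higher and 320 lower over the whole table. In the libraries that remained ALDH3A1 ranged from 103 to 160 FPKM in the controls (n = 4) and from 436 to 575 FPKM at 1 µM (n = 3).

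The share of each isozyme in the summed FPKM of all 19 ALDH genes of a library gives the makeup of the family free of that scaling. The sum itself was 793 ± 193 FPKM in the controls (SD, n = 5) and 1065 ± 258 FPKM at 1 µM. ALDH1A1 made up 41.4% ± 0.938 of it in the controls and ALDH3A1 15.0% ± 1.57. With rising dose the share of ALDH3A1 was 22.1% ± 5.67, 34.3% ± 5.13 and 42.7% ± 5.76, and that of ALDH1A1 was 38.2% ± 4.16, 31.1% ± 5.10 and 22.3% ± 3.81. At 1 µM ALDH3A1 was thus the most abundant isozyme in place of ALDH1A1, with shares of 38.3% to 52.6% against 15.6% to 24.7%. ALDH3A2 held 17.0% to 19.1% in the controls and 14.8% to 20.5% at 1 µM. Since shares add up to 100%, a higher share of ALDH3A1 lowers the others by arithmetic, so these values only describe the makeup.

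**Figure D3:**
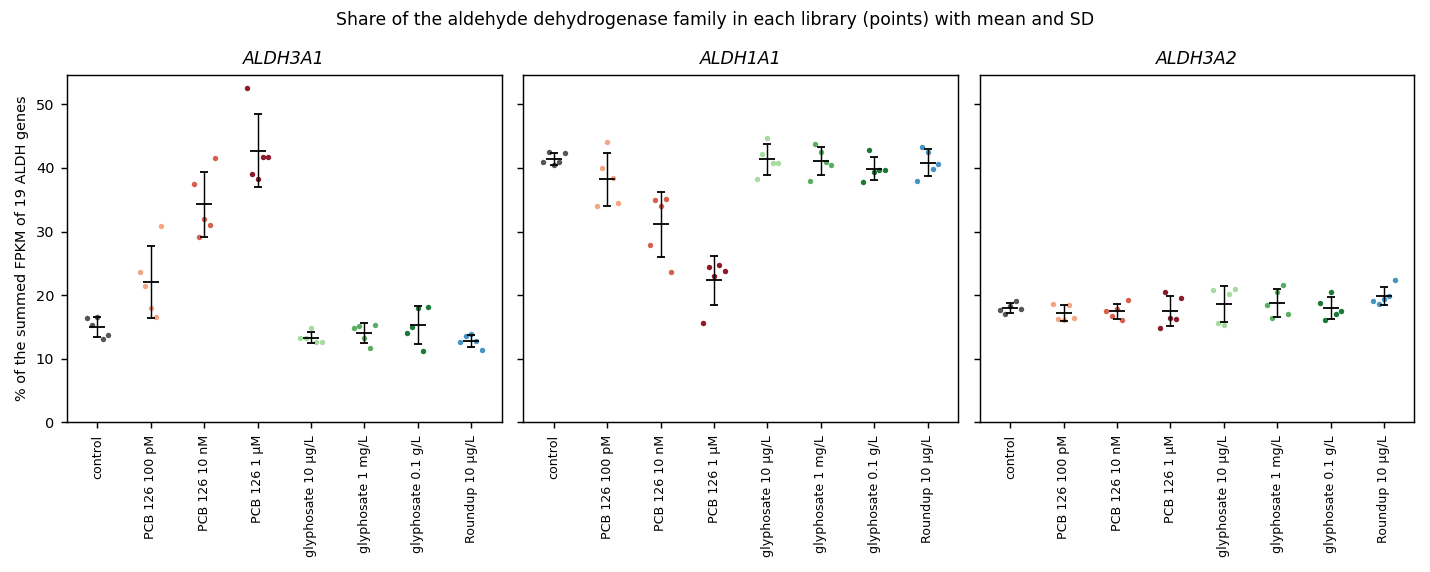
Share of ALDH3A1, ALDH1A1 and ALDH3A2 in the summed FPKM of 19 ALDH genes (vertical axis, percent) in each library by group; points are libraries, horizontal marks the mean and bars the SD of 5 libraries. ALDH3A1 goes from a mean of 15.0% in the controls to 42.7% at 1 µM and ALDH1A1 from 41.4% to 22.3%, while the 4 herbicide groups stay near the controls.

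Which transcripts carried the rise was examined for the 2 responsive genes. ALDH3A1 has 17 transcripts in the tables, of which 10 averaged over 1 FPKM in at least 1 group. The most abundant, ENST00000225740 with 11 exons, held 53.6% of the FPKM of the gene over all libraries. Its FPKM was 65.7 ± 22.5 in the controls (SD, n = 5) and, in order of dose, 104 ± 40.7, 129 ± 45.1 and 251 ± 107. A second, ENST00000468746, went from 25.02 ± 16.01 to 121 ± 94.3 FPKM at 1 µM, with libraries between 10.9 and 245 FPKM. ENST00000457500 had its highest mean at 10 nM, with 55.1 ± 35.1 FPKM against 27.8 ± 22.99 at 1 µM and 12.5 ± 6.81 in the controls, and passed the test at neither dose. The spread of single transcripts was much larger than that of the gene.

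Tested one by one in limma, 0.552% of 21181 transcripts passed at 1 µM. Of the 8 ALDH3A1 transcripts in this fit 2 passed. They were ENST00000225740 (log2 change 1.85, adjusted p = 0.0309) and ENST00000485472 (1.74, adjusted p = 0.026), a short transcript of 5 exons with 0.181 ± 0.184 FPKM in the controls and 3.37 ± 2.14 FPKM at 1 µM. ALDH1A3 had 1 transcript in the fit, ENST00000329841 with 13 exons, which held 87.6% of the gene and passed (2.13, adjusted p = 0.00157). None of the 9 transcripts of ALDH3A2 or of those of the other isozymes passed.

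**Figure D4:**
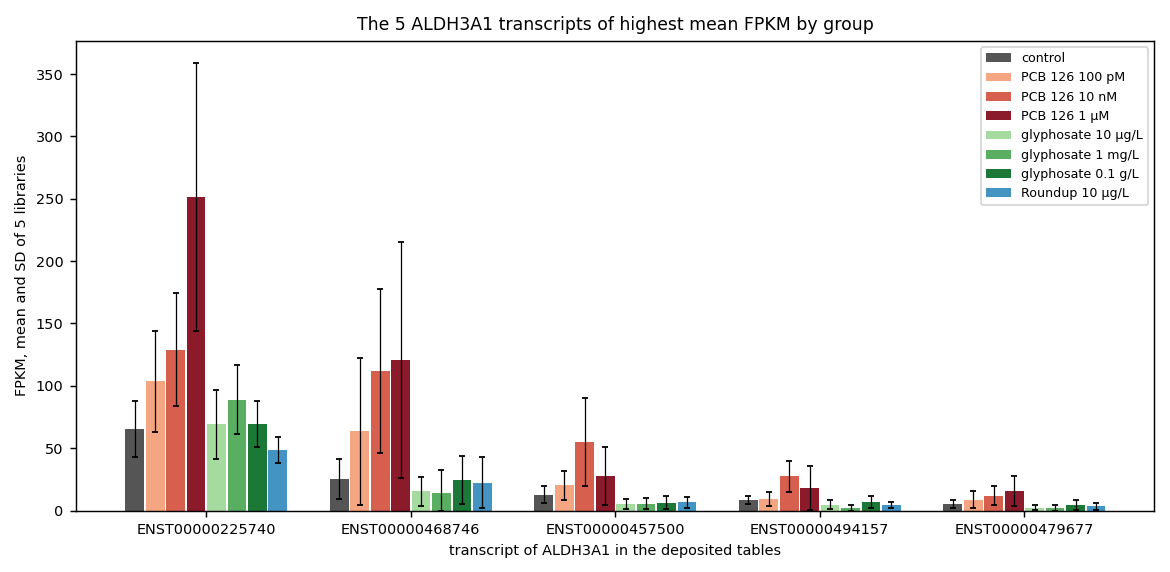
FPKM (vertical axis, from 0) of the 5 ALDH3A1 transcripts with the highest mean, by group; bars are means and lines the SD of 5 libraries, cut at 0. ENST00000225740 rises from 65.7 to 251 FPKM between control and 1 µM, the mean of ENST00000457500 is highest at 10 nM, and the SDs are wide in the exposed groups.

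In the 4 herbicide groups none of the 7 isozymes in the fit passed the test. With limma, 0% of 9533 genes passed in the F-test, for any of the 3 glyphosate levels or for Roundup. At an unadjusted p under 0.05 there were 130 of the 9533 genes in the F-test and 95, 125, 84 and 165 in these 4 groups. No isozyme was among them, and an ordinary linear model called 0 in each. All these counts lie below the about 1 in 20 genes that reach such a p where nothing changes, for a reason not tested. The lack of calls therefore does not show that the herbicides had no effect. The ALDH3A1 libraries ranged from 52.8 to 128 FPKM with glyphosate at 10 µg/L, from 104 to 134 at 1 mg/L, from 65.5 to 153 at 0.1 g/L and from 45.3 to 128 with Roundup, which all overlapped the control range. The ratio of ALDH3A1 to ALDH3A2 with Roundup was 0.511 to 0.727, against 0.685 to 0.93 in the controls (exact permutation p = 0.0238, 1 of 44 tests of ratios and shares in the herbicide groups). The log2 change of ALDH3A1 was -0.28 (95% interval -0.87 to 0.32) at 10 µg/L, 0.00 (-0.59 to 0.59) at 1 mg/L and -0.06 (-0.66 to 0.53) at 0.1 g/L of glyphosate, and -0.46 (-1.05 to 0.13) with Roundup. The upper limits of these intervals lie below the estimated log2 change of ALDH3A1 at each of the 3 doses of PCB 126, the 0.82 at 100 pM included. That estimate has an error of its own, rests on the same controls and did not pass the test. The herbicide groups were not tested against 100 pM. ALDH1A3, which was under the variance filter in this table, stayed between 0.201 and 1.28 FPKM in the 20 herbicide libraries. ALDH2 had the widest intervals, for example -1.57 to 0.48 with Roundup.

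The herbicide libraries also served as a second reference for 1 µM PCB 126, with the same 1 µM libraries as above but other libraries on the opposite side. In a joint limma fit of 40 libraries against the mean of the 4 herbicide groups 9.37% of 9732 genes passed, and 4 of 8 isozymes did. ALDH1A3 was higher by 2.18 ± 0.18 (SE) on the log2 scale and ALDH3A1 by 2.13 ± 0.22. ALDH1B1 was lower, at -0.88 ± 0.21 (adjusted p = 0.00477), and ALDH2 higher, at 1.21 ± 0.38 (adjusted p = 0.0367). The call of ALDH2 was lost without replicate 3 at 1 µM (log2 change 0.86, adjusted p = 0.151 in limma), without replicate 2 or 4 at 1 µM (adjusted p = 0.0507 and 0.061), without replicate 1 of glyphosate at 10 µg/L (1.15, adjusted p = 0.0512) and with the unnamed transcripts added (0.91, adjusted p = 0.198). ALDH1B1 passed in every alternative setting and without each of the 40 libraries.

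Related genes place these changes. Of the other 9 ALDH genes 7 were tested and none passed in any contrast, with a median log2 change of -0.20 at 1 µM. Among 7 genes known to respond to AhR, 6 were tested and 4 passed at 1 µM, all higher: CYP1A1 (6.61) and CYP1A2 (6.16), both oxygenases of planar aromatic compounds, TIPARP (3.21), a feedback repressor of AhR, and CYP1B1 (2.51). AHRR, the AhR repressor, the conjugating enzyme UGT1A6 and NQO1 were not among the genes called. The gene of this list that did not enter the fit is among them, so not all of these were tested. Of 18 other enzymes that make or remove aldehydes, 16 were tested and 3 passed at 1 µM, all lower. They were the alcohol dehydrogenases ADH1C (-2.59 ± 0.53, SE), ADH1B (-1.58 ± 0.38) and ADH1A (-1.35 ± 0.35), which make acetaldehyde from ethanol.

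The genes whose log2 values followed each responsive isozyme most closely over the 20 libraries of the PCB 126 table were picked by Pearson's r, as a description over libraries that share the 4 groups. For ALDH1A3 they were SCG5 (0.977), MB21D2 (0.976) and CYB561A3 (0.969). For ALDH3A1 they were TRIM15 (0.959), ALDH1A3 itself (0.957) and SCG5 (0.951).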

How the data were processed

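The authors mapped the read pairs of rRNA-depleted, directional libraries on GRCh38 (HISAT2), built transcript models with StringTie from the Ensembl annotation, and deposited FPKM per transcript for each library, with no scaling between libraries stated. A few FPKM in the deposited tables were below 0, and the columns holding them were therefore read as a score, with such values (4 with PCB 126, 6 with glyphosate) set to 0. The 5 control libraries are identical in both tables. FPKM are not counts, so depth is not known from the tables. Precision is limited by the 5 libraries per group. Which libraries had many multiply aligned pairs was taken from the alignment summary that accompanies the study.

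FPKM were summed per gene name. Genes with a variance of FPKM above 1 were tested as log2(FPKM + 1) with limma 3.58.1 in R 4.3.3, all groups of a table in 1 fit, with Benjamini-Hochberg adjustment over all genes and a threshold of 0.05. The study's methods used a linear model on transcripts; here transcripts were also fitted one by one, with limma, and an ordinary linear model was fitted to gene sums. Single values were compared with 2-sided exact permutation tests (scipy 1.17.1). All 10 isozymes were named by rule, with values for up to 4 AhR-response genes and 4 aldehyde enzymes. AHRR, UGT1A6, NQO1 and the cell type markers named fall outside that rule and were named after their values were seen. Members and lists were chosen with earlier results of these data known. The fit was also run on simulated data, made by shuffling residuals within genes, which need not keep level differences between whole libraries. No result here rests on that run. Alternatives were other pseudocounts, filters, scalings, models and sums, a replicate block, and leaving out libraries. Adding unnamed transcripts, testing transcripts one by one and taking family shares were chosen after seeing the data. Replicate numbers follow accession order and only name libraries; the block used the runs of library numbers in the sample titles.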

Additional observations from a re-analysis of the deposited data

Results flagged for a closer look

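In 80 groups of 5 libraries (10 isozymes in 8 groups), 5 held a library that stood apart by Dixon's ratio at its 95% critical value of 0.71, which chance flags in about 1 in 20 groups. Of these, 4 were in ALDH2. Replicate 3 at 1 µM PCB 126 was the highest with 100.4 FPKM, the nearest being 37.7. With glyphosate, replicate 2 at 10 µg/L had 69.1 FPKM against 15.0 in the nearest library, and replicate 4 at 0.1 g/L had 79.4 FPKM against 25.4. In these 3 libraries the transcript ENST00000548536 held 97.7, 63.4 and 75.1 FPKM, whereas its highest value in the 5 groups without such a library was 1.68 FPKM. At 10 nM PCB 126, replicate 3 was the lowest with 8.53 FPKM, the nearest being 24.2, and it has over 30% multiply aligned pairs. The fifth was ALDH8A1 at 1 µM, where replicate 1, also over 30%, had 0.330 FPKM and the nearest library 1.02 FPKM. Why the FPKM fell to that transcript in these libraries was not tested, nor was the cause of the low values.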

How the results depend on the processing

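ALDH3A1 and ALDH1A3 passed at 1 µM in all settings, and no change of a called isozyme turned its sign. Of 196 counts of called isozymes in settings other than leaving out a library, 178 stayed within 1.5 times the reported count. The others were as follows. Pairs of numbers in brackets are the genes called over the whole table, higher and lower. In the main fit these were 63 and 119 at 1 µM and 90 and 279 in the trend. They were 167 and 745 against the herbicide groups, and 0 and 0 for 10 nM against 100 pM. Scaling to the 75th percentile gave 4 isozymes at 1 µM (247 and 343), 5 in the dose trend (254 and 587) and 7 against the herbicide groups (465 and 2656). Quantile normalization gave 5 at 1 µM (532 and 553), 5 in the trend (599 and 643), 4 in the F-test and 2 for 10 nM against 100 pM (14 and 0). A library-size term in an ordinary linear model gave 4 at 1 µM (448 and 375). Array weights gave 5 at 1 µM (268 and 678), 6 in the trend (298 and 929) and 2 for 10 nM against 100 pM (103 and 157). They also gave 5 in the herbicide F-test and 4 for Roundup, but their estimation stopped before convergence. In the last 2 they called 5527 and 3470 genes. At 10 nM, 1 isozyme was called with no filter (ALDH1A3), with the most abundant transcript (ALDH1A3; also 1 in the F-test) and with transcripts one by one (ALDH3A1). Without the libraries over 30% multiply aligned, 1 was called for 10 nM against 100 pM (ALDH1A3), with 25 genes higher and 0 lower over the whole table. For these counts the cause was not tested.

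Leaving out 1 library gave 1 to 2 isozymes at 10 nM, 2 to 4 in the trend and 3 to 4 against the herbicide groups. The trend of ALDH1B1 was also lost with 5 other settings (adjusted p up to 0.0929 in limma), and ALDH2 against the herbicide groups with 5 (up to 0.217). The block groups libraries by runs of library numbers in the titles, and the labels do not say that a run marks a shared batch. Each run held 1 library of each of the 8 groups. The main fit and the exact tests did not use this layout. The median correlation of deviations between libraries of the same run was 0.06 in the PCB 126 table, against -0.02 between different runs. There 9 of 20 libraries correlated best with their own run. In the glyphosate table it was 0.07 against -0.02, and 18 of 25 libraries did so. With 5 runs, about 1 in 5 libraries would do so if the runs made no difference. With this replicate block, ALDH1B1 also passed at 1 µM and in the F-test, making 3 isozymes in each. The block moved the genes called from 20 to 37 at 10 nM, from 182 to 357 at 1 µM and from 369 to 639 in the trend.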
